A study of Mus musculus with 4 samples.

Results

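Prostaglandin synthesis and receptor genes were followed through dermal white adipose tissue (dWAT), the fat layer around the lower ends of hair follicles (HFs), of mice at 2 ages, in telogen and in anagen. The set holds 10 of the 22913 genes in the files. It was chosen by name, as 5 enzymes (Ptgs1, Ptgs2, Ptges, Ptgds and Ptgis) and 5 receptors (Ptger2, Ptger3, Ptger4, Ptgir and Ptgfr), and all 10 were found. The dWAT was microdissected from the skin of C57BL/6 mice and RNA was sequenced as 1 library for each group, for which the study states 20 mice. The groups are OTD (old mice, 18 months, telogen, the resting phase of the HF), YTD (young mice, 2 months, telogen), OAD (old mice, anagen, the growth phase) and YAD (young mice, anagen). Anagen was induced by depilation, so it cannot be told apart from the response to hair plucking. The age field of the labels gives 18 months for YTD and 2 months for OAD, against the titles and the study's methods, and the titles were followed here.

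Prostaglandins are short-lived lipid signals made from arachidonic acid, which phospholipases release from membranes. The cyclooxygenases Ptgs1 and Ptgs2 turn it into prostaglandin H2, and terminal synthases such as Ptges, Ptgds and Ptgis turn that into prostaglandin E2, prostaglandin D2 and prostacyclin. The products leave the cell and act on G protein-coupled receptors of the same or nearby cells. In skin, prostaglandin E2 and F2 alpha signals are known for promoting hair growth and prostaglandin D2 for inhibiting it. In white fat, prostaglandin E2 acting on Ptger3 is known for restraining lipolysis.

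The values are FPKM, the fragments of a gene relative to its length and to the size of the library. A difference is that of log2(FPKM + 1), and a gene is called where this is at least 1 in size. There are no replicates, so no difference carries a replicate error or a test. Counting error is given as 95% intervals on fragments estimated from the lowest FPKM, roughly 19900000 in OTD and 18800000 in YTD, against 23900000 in OAD and 17800000 in YAD. These intervals, and the floor of 3 fragments, cover counting error only. Mitochondrially encoded genes made up 52.7% of all FPKM in OTD and 44.7% in YTD, against 18.3% in OAD and 14.4% in YAD. The 10 adipocyte markers were all detected, with a summed FPKM of 7884 in OTD and 6530 in YTD, against 2747 in OAD and 1919 in YAD. Skeletal muscle markers summed to 51408, 82522, 12091 and 9191 FPKM in the same order, so the libraries hold RNA of other tissue too. In bulk tissue, fewer cells of a type and less RNA per cell cannot be told apart.

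The promoters of both cyclooxygenases and of Ptgds are shown because Ptgs1 and Ptgs2 start the pathway and Ptgds had the widest range of values. Ptgds was added after its values were seen. Each window runs from 250 bases before to 49 bases past the RefSeq start on GRCm38.p6, with matches to the searched motifs in capitals. Ptgs1 is at chr2:36230176-36230475 on the plus strand, Ptgs2 at chr1:150099781-150100080 on the plus strand and Ptgds at chr2:25469700-25469999 on the minus strand.
Ptgs1: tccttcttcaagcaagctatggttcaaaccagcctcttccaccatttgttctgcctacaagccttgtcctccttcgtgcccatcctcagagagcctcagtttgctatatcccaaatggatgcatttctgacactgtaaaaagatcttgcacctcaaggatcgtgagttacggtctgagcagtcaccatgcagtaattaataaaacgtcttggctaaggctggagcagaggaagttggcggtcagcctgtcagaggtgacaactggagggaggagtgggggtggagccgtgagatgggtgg
Ptgs2: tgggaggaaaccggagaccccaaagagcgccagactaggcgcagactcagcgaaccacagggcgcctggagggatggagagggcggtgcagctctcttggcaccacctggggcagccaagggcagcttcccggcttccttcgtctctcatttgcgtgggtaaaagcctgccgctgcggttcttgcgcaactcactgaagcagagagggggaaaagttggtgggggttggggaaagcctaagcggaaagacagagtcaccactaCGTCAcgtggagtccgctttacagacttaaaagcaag
Ptgds: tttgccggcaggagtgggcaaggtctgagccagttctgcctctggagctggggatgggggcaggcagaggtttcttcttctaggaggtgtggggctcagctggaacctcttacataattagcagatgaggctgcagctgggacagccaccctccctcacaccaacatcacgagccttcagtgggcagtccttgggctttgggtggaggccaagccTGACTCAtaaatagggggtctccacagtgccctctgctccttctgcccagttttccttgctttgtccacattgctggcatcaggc
The motifs were searched on both strands. The Ptgs2 window holds TGACG, the core of a cAMP response element, on the other strand at bases 264 to 268, past the start, in a stretch added to the search after a first look. This motif lies in 20.8% of 32851 promoters of the same length. The Ptgds window holds TGANTCA, the AP-1 motif, at bases 216 to 222, against 7.81% of promoters. This window lies wholly inside the Ptgds interval of the deposited data, 25466709 to 25470046. The RefSeq start used here is thus not the upstream end of that interval. Ptgs1 has no match to either. The nuclear factor kappa B motif, found in 5.56% of promoters, and the TATA box TATAAA, found in 13.6%, match in 0 of the 9 members with a promoter in the table. Ptgis is the member without one. A match is a string of letters and does not show binding.

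Ptgs1, the constitutive cyclooxygenase, was higher in old than in young telogen dWAT and low in both anagen libraries. The gene (ENSMUSG00000047250, chromosome 2, 36230426 to 36252272, GRCm38) reached 14.4 FPKM in OTD and 6.26 in YTD, against 2.57 in OAD and 2.55 in YAD. The order put OTD on top and the anagen libraries level at the bottom. OTD was 2.29-fold YTD (interval 1.95 to 2.70), a log2 difference of 1.08, and Ptgs1 was the only member called between ages in telogen. In anagen the ratio of old to young was 1.01 (0.751 to 1.36). Anagen was lower at both ages, by 5.58-fold in old mice (4.55 to 6.93) and 2.46-fold in young mice (1.90 to 3.21).

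Markers of other cell types moved beside Ptgs1. All 9 endothelial markers were higher in OTD than in YTD, with a summed FPKM of 595 in OTD and 377 in YTD, against 147 in OAD and 109 in YAD. Of 12 macrophage markers 11 were higher in OTD, with summed FPKM of 830, 508, 107 and 137. No marker of these lists was at 0. Ptgs1 stood at 2.41% of the endothelial sum in OTD and 1.66% in YTD, against 1.75% in OAD and 2.33% in YAD. Of 8 smooth muscle and pericyte markers 5 were higher in OTD and 3 of them called (Acta2, Tagln and Cnn1). Their sum without Des, which skeletal muscle also expresses, was 597 FPKM in OTD and 326 in YTD, against 173 in OAD and 181 in YAD, while with Des it was 1636 and 1992, against 430.3 and 362. Of 10 fibroblast markers 8 were higher in OTD and 2 called (Lum and Dcn), with sums of 1922 and 1363 FPKM, against 282 and 432. The part of these cells in the Ptgs1 result was not tested. The 3 genes with the most similar profile over the 4 libraries, by the root mean square difference of centred log2(FPKM + 1) among 13568 genes, were Bcl6b at 0.055, Myl9 at 0.055 and Plscr4 at 0.060.

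Ptgs2, the inducible cyclooxygenase (ENSMUSG00000032487, chromosome 1, 150100031 to 150108227), was low in every library and lowest in YTD. Its FPKM was 0.536 in OTD and 0.0325 in YTD, against 0.319 in OAD and 0.315 in YAD. The YTD value rests on about 1.11 fragments, under the floor of 0.0879 FPKM. The ratio of OTD to YTD was 16.5 with an interval of 2.85 to 746, so its size is hardly known, and the log2 difference of 0.57 was below the threshold because of the added 1. The anagen libraries had a ratio of 1.01 (0.431 to 2.62). Young anagen was 9.71-fold young telogen (1.503 to 458), and old anagen and old telogen had a ratio of 0.596 (0.285 to 1.29). Immediate early genes, which are induced within minutes of a stimulus, moved beside it between ages in telogen. All 20 were higher in OTD than in YTD and 17 were called, with summed FPKM of 1207 in OTD and 374 in YTD, against 813 in OAD and 652 in YAD. Fos, one of them, was at 131 FPKM in OTD and 12.3 in YTD, but at 7.68 in YAD, and none was at 0. Between phases they were mixed, with 11 higher and 9 lower in YAD than in YTD, 8 and 3 of them called. In old mice 7 were higher and 13 lower in anagen, 1 and 10 of them called. Their part in the Ptgs2 values was not tested. The most similar profiles were those of Nab1 at 0.019, Lima1 at 0.033 and Lgals4 at 0.037. At such low FPKM the added 1 flattens the Ptgs2 profile, so these matches do not show shared fold changes. Nab1 had 14.3 FPKM in OTD and 9.60 in YTD, against 12.6 in OAD and 12.3 in YAD. Ptgs2 itself stayed below the FPKM of 1 asked of the genes searched.

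Ptges, the inducible prostaglandin E2 synthase (ENSMUSG00000050737, chromosome 2, 30889471 to 30903297), differed little with age and was lower in anagen. Its FPKM was 4.80 in OTD and 5.98 in YTD, against 2.61 in OAD and 2.51 in YAD. Both telogen values lay above both anagen values. Neither age ratio excluded 1, at 0.803 in telogen (0.523 to 1.22) and 1.04 in anagen (0.567 to 1.90). Telogen was 2.38-fold anagen in young mice (1.39 to 4.10) and 1.84-fold in old mice (1.11 to 3.02).

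Ptgds, which makes prostaglandin D2 and also carries lipophilic molecules, had the largest difference of the 10 members between phases. The gene (ENSMUSG00000015090, chromosome 2, 25466709 to 25470046) reached 2.84 FPKM in OTD and 1.90 in YTD, against 135.8 in OAD and 197.3 in YAD. The telogen libraries were low and the anagen libraries high, with no value between. Anagen was 104-fold telogen in young mice (68.3 to 173) and 47.8-fold in old mice (34.0 to 70.6), log2 differences of 6.10 and 5.16. It stood above 96.6% of the genes detected in OAD and 97.7% in YAD, against 38.4% in OTD and 32.3% in YTD. In anagen the old library had 0.688 of the young level (0.646 to 0.734), which did not reach the threshold. In telogen the ratio was 1.496 (0.838 to 2.79).

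Melanocyte and hair shaft genes moved with Ptgds. All 8 melanocyte markers were called higher in anagen at both ages, with summed FPKM of 12.5 in OTD and 14.7 in YTD, against 457 in OAD and 756 in YAD. All 8 were also lower in OAD than in YAD, and none was at 0 in any library. Of 10 hair shaft and matrix markers 9 were found, all called higher in anagen, with sums of 31.6, 89.6, 10180 and 10384 FPKM. Ptgds was 22.7% of the melanocyte sum in OTD and 12.9% in YTD, against 29.7% in OAD and 26.1% in YAD. The most similar profiles were those of the hair keratin-associated gene Krtap5-1 at 0.13, the melanosome gene Pmel at 0.23 and Gm3233 at 0.27. Whether Ptgds RNA came from dWAT or from HF cells in the dissected tissue was not tested.

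**Figure D1:**
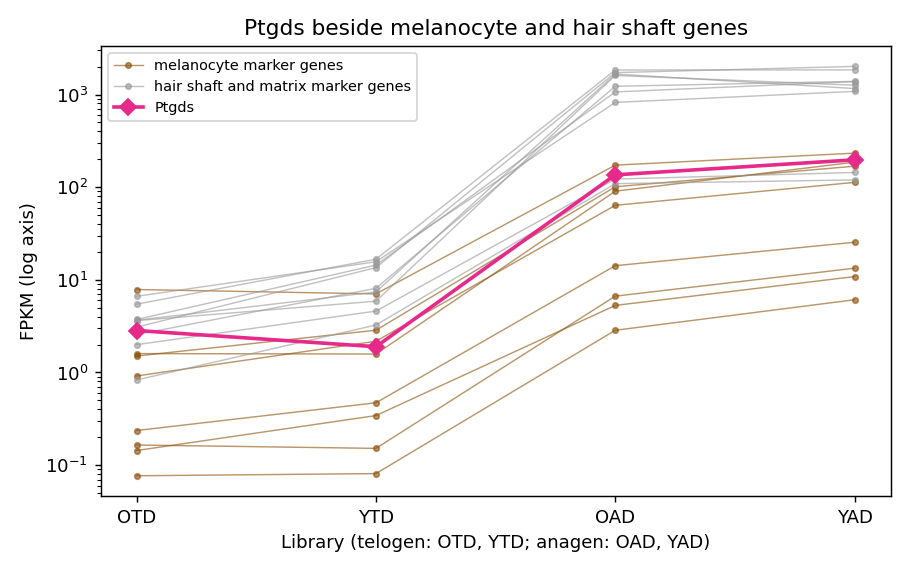
FPKM (log axis) of Ptgds (diamonds), 8 melanocyte markers and 9 hair shaft and matrix markers (points) in the 4 libraries, with lines joining the values of 1 gene. Ptgds rises from 2.84 and 1.90 in the telogen libraries to 135.8 and 197.3 in the anagen libraries, as the marker genes rise.

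Ptgis, the prostacyclin synthase (ENSMUSG00000017969, chromosome 2, 167191805 to 167240604), was higher in telogen at both ages. Its FPKM was 2.81 in OTD and 2.01 in YTD, against 0.255 in OAD and 0.385 in YAD. Telogen was 11.0-fold anagen in old mice (5.77 to 25.9) and 5.22-fold in young mice (2.78 to 12.1). The age ratio was 1.40 in telogen (0.992 to 1.99) and 0.662 in anagen (0.241 to 1.84). The telogen interval lies so near 1 that it excluded 1 under 2 other estimates of depth.

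The makeup of the enzymes therefore differed between phases. Of the FPKM summed over the 5 enzymes, Ptgds made up 11.2% in OTD and 11.7% in YTD, but 95.9% in OAD and 97.2% in YAD. Ptgs1 held 56.7% in OTD and 38.7% in YTD, against 1.82% in OAD and 1.253% in YAD. These shares compare levels per length within a library, so they do not depend on scaling between libraries.

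Ptger3, a prostaglandin E2 receptor that lowers cAMP, was the most abundant member in telogen. The gene (ENSMUSG00000040016, chromosome 3, 157566892 to 157644758) reached 35.5 FPKM in OTD and 39.7 in YTD, against 7.82 in OAD and 8.96 in YAD. Telogen and anagen values did not overlap. Telogen was 4.55-fold anagen in old mice (3.89 to 5.31) and 4.43-fold in young mice (3.75 to 5.23). The age ratios were near 1, at 0.895 in telogen (0.810 to 0.987) and 0.872 in anagen (0.709 to 1.07), and without mitochondrially encoded genes the telogen log2 difference turned from -0.16 to 0.06. All 10 adipocyte markers were also lower in YAD than in YTD, and 9 were called. In old mice all 10 were lower in anagen and 8 called. Their median log2 difference was -1.62 in young and -1.40 in old mice, against -2.03 and -2.05 for Ptger3. In young mice Retn and Cfd fell further, at -2.15 and -2.26. Ptger3 stood at 37.9% of the level of the adipocyte phospholipase Pla2g16 in OTD and 44.3% in YTD, against 34.9% in OAD and 44.2% in YAD, a ratio chosen after the values were seen. Pla2g16 is not one of the 10 markers. Against the adipocyte marker Adipoq the ratio varied more, at 8.32% in OTD and 14.2% in YTD, against 7.56% in OAD and 11.7% in YAD. The part of adipocyte RNA in the Ptger3 values was not tested.

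Ptger4, a prostaglandin E2 receptor that raises cAMP, ran the other way between phases. The gene (ENSMUSG00000039942, chromosome 15, 5233399 to 5244187) reached 4.06 FPKM in OTD and 1.78 in YTD, against 12.5 in OAD and 11.3 in YAD. Anagen values were above telogen values, and OTD was above YTD. Anagen was 6.36-fold telogen in young mice (4.76 to 8.81) and 3.07-fold in old mice (2.50 to 3.76). Old telogen was 2.29-fold young telogen (1.66 to 3.27), a log2 difference of 0.87 below the threshold, and the anagen age ratio was 1.10 (0.953 to 1.28).

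Ptger2, the other cAMP-raising E2 receptor (ENSMUSG00000037759, chromosome 14, 44988195 to 45003820), was barely detected. Its FPKM was 0.503 in OTD and 0.212 in YTD, against 0.123 in OAD and 0.153 in YAD. The anagen values rest on about 3.20 and 2.97 fragments, so no fold between them is given, and the telogen age ratio of 2.37 had an interval of 0.770 to 11.2.

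Among the 4 genes for prostaglandin E2 receptors, Ptger1 included, Ptger3 made up 83.9% of the FPKM in OTD and 86.4% in YTD, and 35.1% in OAD and 40.3% in YAD. Ptger4 held 9.60% in OTD and 3.86% in YTD, against 56.0% in OAD and 50.8% in YAD. The ratio of Ptger3 to Ptger4 was 8.74 in OTD and 22.4 in YTD, against 0.627 in OAD and 0.793 in YAD. The leading receptor was thus Ptger3 in both telogen libraries and Ptger4 in both anagen libraries.

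**Figure D2:**
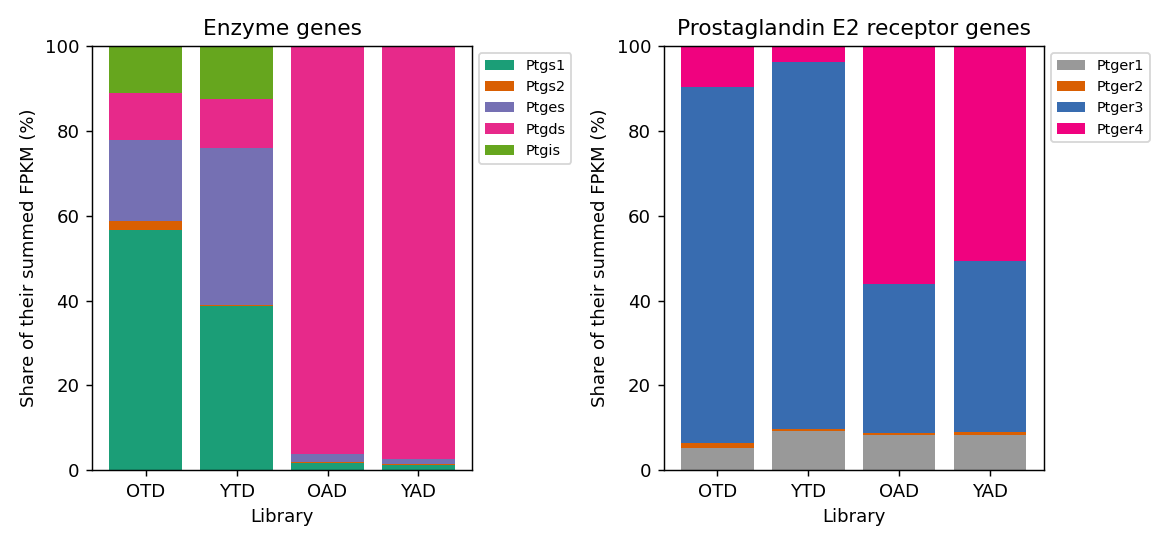
Shares (%) of the summed FPKM of the 5 enzyme genes (left) and of the 4 prostaglandin E2 receptor genes (right) in each library. Ptgds fills 95.9% and 97.2% of the enzyme bars in anagen, and Ptger4 takes the larger share of the receptor bars there.

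Ptgir, the prostacyclin receptor (ENSMUSG00000043017, chromosome 7, 16906490 to 16910905), was, like Ptgis, higher in telogen. Its FPKM was 2.21 in OTD and 1.13 in YTD, against 0.411 in OAD and 0.335 in YAD. OTD was highest and the anagen libraries lowest. Old telogen was 1.95-fold young telogen (1.23 to 3.32), and telogen was 5.36-fold anagen in old mice (2.91 to 11.3) and 3.37-fold in young mice (1.49 to 9.60). The anagen age ratio was 1.23 (0.463 to 3.83). Ptgfr, the prostaglandin F2 alpha receptor (ENSMUSG00000028036, chromosome 3, 151798918 to 151837630), reached 2.31 FPKM in OTD and 1.85 in YTD, against 0.354 in OAD and 0.425 in YAD. Telogen again lay above anagen, by 6.53-fold in old mice (3.32 to 15.7) and 4.34-fold in young mice (2.07 to 11.2). Its age ratios did not exclude 1, at 1.252 in telogen (0.817 to 1.98) and 0.833 in anagen (0.287 to 2.50). Of the 10 fibroblast markers 7 were called lower in anagen in young mice and 8 in old mice, beside Ptgis, Ptgir and Ptgfr, as were all 9 endothelial markers at both ages. The fibroblast marker Dpp4 was called higher in anagen at both ages, by 1.51 and 1.18. Other lists fell as well, with 9 of 12 macrophage and 9 of 10 adipocyte markers called lower in young mice. In old mice these were 10 and 8. No fibroblast marker was at 0, and the part of these cells in the 3 results was not tested.

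**Figure D3:**
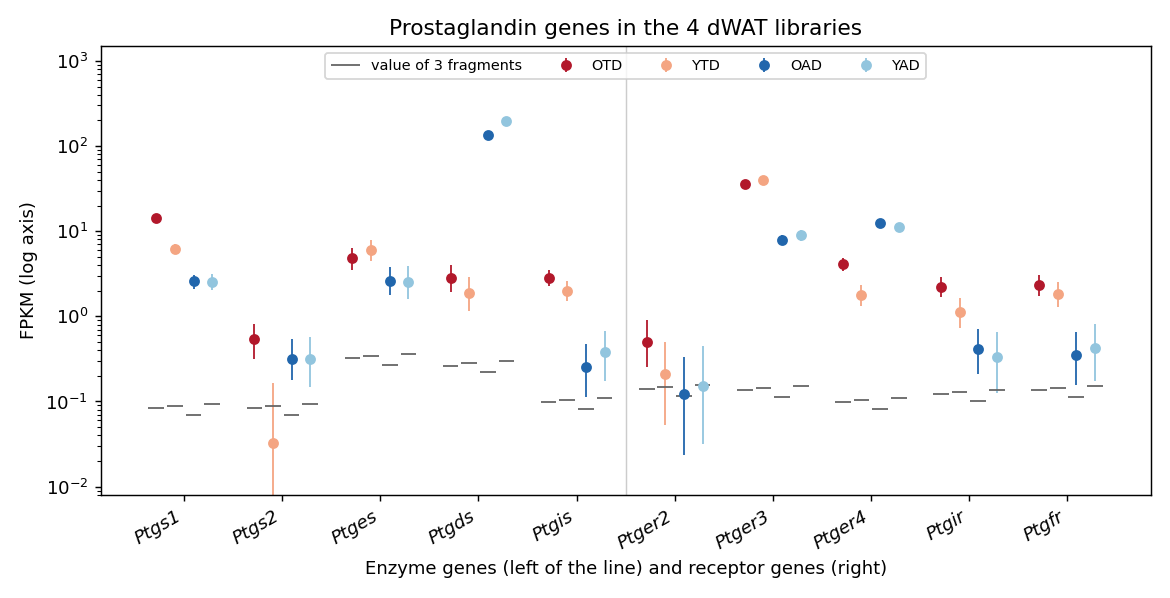
FPKM (log axis) of the 10 members in the 4 libraries, as points with 95% counting intervals, and the value of 3 estimated fragments as short grey lines. Ptgds and Ptger4 are higher in the anagen libraries, and Ptgs2 in YTD lies under its floor.

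Ptgs1, Ptgis, Ptger2, Ptger4 and Ptgfr overlap exons of genes on the other strand. Whether the libraries kept strand is not given in the sources used here, so reads of such pairs cannot be told apart.

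For the question of age in telogen, 8 of the 10 members had higher values in OTD and 2, Ptges and Ptger3, lower. Of all 17230 genes, 45.8% had higher values in OTD and 54.1% lower. 1 member was called higher, against 1.67% of these genes, and 0 lower, against 1.93%. The median member difference was 0.37, against -0.03 over all genes. The intervals of 5 ratios excluded 1, those of Ptgs1, Ptgs2, Ptger4 and Ptgir above it and of Ptger3 below it. The study's text counts prostaglandin biosynthesis among the gene groups raised in old telogen dWAT, so the direction is not independent evidence. With a pseudocount of 0.1 the calls were 3, Ptgs1, Ptgs2 and Ptger4. In anagen 5 members had higher values in OAD and 5 lower, beside 50.0% and 49.9% of all genes, with a member median of -0.02. 0 members were called, against 0.727% of genes higher and 0.454% lower among 17613. Only the interval of Ptgds excluded 1. The difference between the age changes of the phases was not tested.

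**Figure D4:**
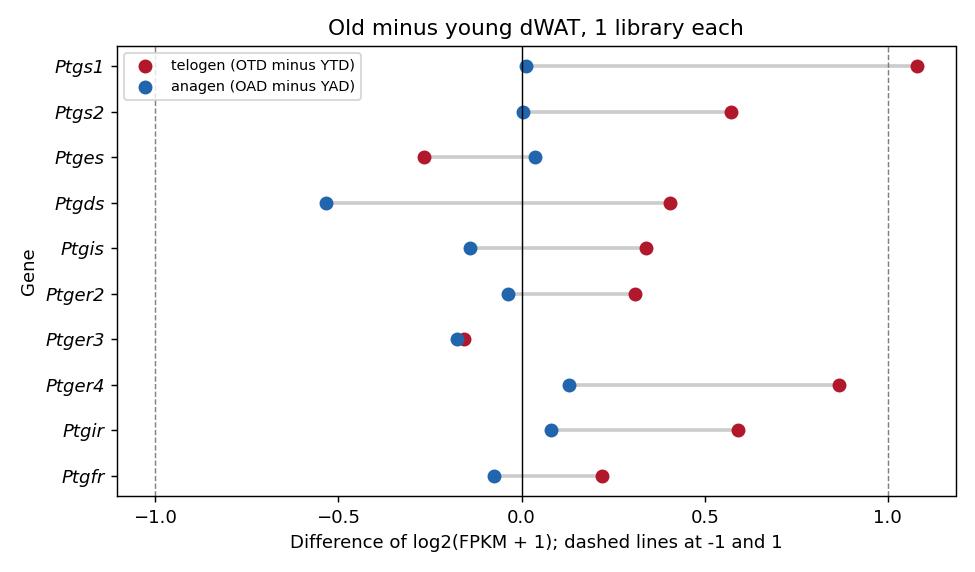
Difference of log2(FPKM + 1), old minus young, for each member in telogen (red) and anagen (blue), with the threshold of 1 dashed. Ptgs1 in telogen, at 1.08, is the only point past it.

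For the question of hair cycle phase, 2 members (Ptgds and Ptger4) were called higher in young anagen, against 16.1% of all 17622 genes, and 3 (Ptgs1, Ptgis and Ptger3) lower, against 16.7%. In old mice the same comparison called Ptgds and Ptger4 higher, against 16.1% of 17712 genes, and 5 (Ptgs1, Ptgis, Ptger3, Ptgir and Ptgfr) lower, against 15.6%. The median member difference was -0.83 in young and -0.93 in old mice, against 0.02 and 0.01 over all genes. Intervals excluded 1 for 9 members in each, all but Ptger2 in young mice and all but Ptgs2 in old mice. The Ptgs2 interval in young mice rests on about 1.11 fragments in YTD. For Ptger2 in old mice, telogen was 4.08-fold anagen (1.16 to 24.6), with about 3.20 fragments in OAD. The count of lower calls depends on scaling. In young mice rescaling to TPM moved the median of all genes by 0.73 and left 1 lower call (Ptger3). Relative to that shift 8 members were called, counting both directions. In old mice TPM moved that median by 0.53 and left 3 lower calls (Ptgs1, Ptgis and Ptger3). Relative to that shift 7 members were called, again counting both directions. The comparisons share libraries, so they are given side by side only.

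**Figure D5:**
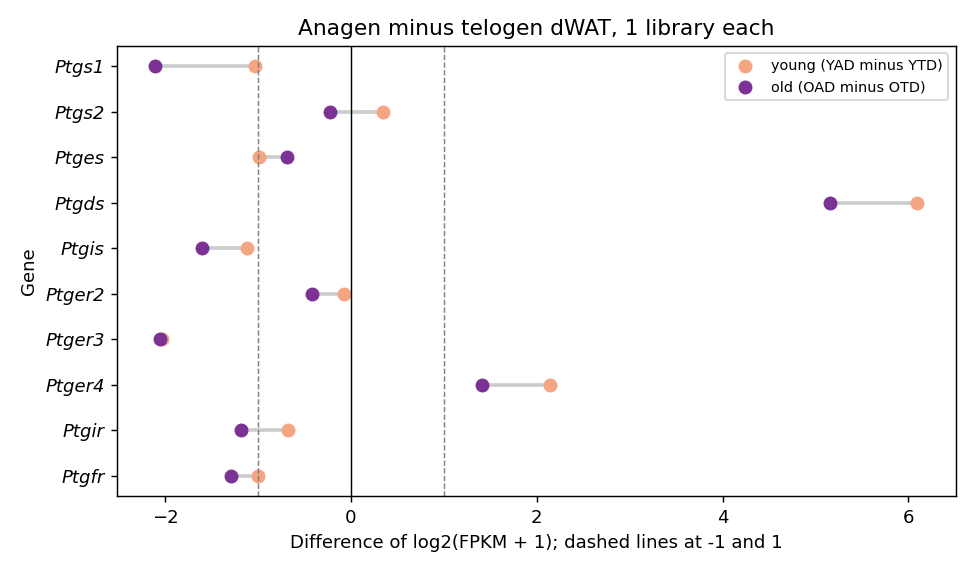
Difference of log2(FPKM + 1), anagen minus telogen, for each member in young (orange) and old (purple) mice, with the threshold of 1 dashed. Ptgds, at 6.10 and 5.16, and Ptger4, at 2.15 and 1.41, lie past it on the right.

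The rest of the pathway was read from 5 lists of 50 genes. Between ages in telogen 25 were higher and 23 lower, with 1 called each way, beside 1.67% of all genes higher and 1.93% lower. The gene called higher was Cysltr1, the receptor for cysteinyl leukotrienes, at 5.38 FPKM in OTD and 1.75 in YTD. The gene called lower was the secreted phospholipase Pla2g2e, at 0.861 and 2.78 FPKM. In anagen 29 were higher and 20 lower in old mice, and 0 were called.

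Between phases, 12 of the 50 were called higher and 7 lower in young anagen, and 13 and 11 in old anagen. As shares of the 50 these are 24% and 14% in young and 26% and 22% in old mice, beside the 16.1% and 16.7%, and 16.1% and 15.6%, of all genes given above. Of 14 genes listed under arachidonate release, 5 (35.7%) were called higher at each age, and 4 of these (Pla2g2e, Pla2g2f, Pla2g4b and Pla2g4f) at both. Called lower were 1 (7.14%) in young and 2 (14.3%) in old mice. Release of arachidonate itself was not measured. Pla2g2e, the highest of the list by its mean over the libraries, reached 183 FPKM in OAD and 104 in YAD. Pla2g2f, a related secreted phospholipase, had 1.61 in OTD and 2.34 in YTD, against 60.3 in OAD and 50.7 in YAD. The cytosolic phospholipases Pla2g4b and Pla2g4f reached 10.7 and 14.2 FPKM in OAD from 0.503 and 0.0870 in OTD. The OTD value of Pla2g4f rests on about 4.45 fragments, and the interval of its ratio of OAD to OTD was 70.8 to 669. Pla2g16 ran the other way, at 93.7 FPKM in OTD and 89.7 in YTD, against 22.4 in OAD and 20.3 in YAD. The rises of Pla2g2e, Pla2g2f, Pla2g4b and Pla2g4f stood beside those of the hair shaft markers above. Keratinocyte markers rose too, with 6 of 8 called higher in young and 5 in old mice. The fall of Pla2g16 stood beside that of the adipocyte markers. The part of these cells was not tested.

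Of 11 other prostanoid synthases, 9 were lower in anagen at each age, beside 48.8% of all genes in young and 49.0% in old mice. The prostaglandin F synthase Akr1b3 had the highest mean of this list, at 121.5 FPKM in OTD and 178.0 in YTD, against 62.6 in OAD and 62.3 in YAD. Fam213b, another prostaglandin F synthase, had 85.5 FPKM in OTD and 170.5 in YTD, against 29.3 in OAD and 25.3 in YAD. Of the 4 other receptors, Ptger1 had the highest mean over the libraries, with 4.28 FPKM in YTD and 1.84 to 2.25 in the rest, although Tbxa2r, the thromboxane receptor, stood above it in OTD at 3.50 FPKM. Ptgr2, an enzyme of prostaglandin breakdown, had the highest mean of the breakdown, transport and receptor partners, with 24.9 FPKM in OTD and 32.9 in YTD, against 10.4 in OAD and 10.2 in YAD. In both anagen libraries Ptgfrn and Zadh2 stood above it.

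Of 14 lipoxygenase and leukotriene genes, the same 6 (42.9%) were called higher in anagen at each age, against 16.1% of all genes. Called lower were 3 (21.4%) in young mice, against 16.7% of all genes, and 2 (14.3%) in old mice, against 15.6%. Alox8 was at 0.218 FPKM in OTD and 0.917 in YTD, against 36.7 in OAD and 37.2 in YAD. Alox12, Alox12e, Ltb4r1 and Ltb4r2 had log2 differences of 1.69, 2.10, 2.46 and 2.22 in young mice. Alox5ap, the partner of 5-lipoxygenase in leukotriene synthesis, fell from 35.9 to 4.22 FPKM in old mice and from 27.1 to 5.58 in young mice. Lta4h, which had the highest mean of this list over the libraries but the highest value in none, ran from 14.8 to 23.5 FPKM.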

How the data were processed

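RNA of microdissected dWAT was sequenced as 1 library a group (OTD, YTD, OAD, YAD). The authors deposited FPKM for 22913 genes, with a length that is a multiple of 3 for 97.0% of them, as coding lengths are. The submitters' processing notes name bcl2fastq, TopHat2 and GRCm38, and the tool behind the FPKM is not given in the sources used here. FPKM were used as deposited, with a pseudocount of 1, and genes were called at a log2 difference of 1. Symbols were matched for 21750 of 22166 Ensembl genes. The members and gene lists were chosen with earlier results of these data known. Named genes are the members, the highest gene of each pathway list, pathway genes called between ages or differing by at least 2 (log2) between phases, and the 3 most similar profiles of Ptgs1, Ptgs2 and Ptgds.

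Depth was read from the lowest FPKM of features 2000 to 4000 bp long, which cluster at the value of 1 fragment. The estimator was settled after several were tried on these libraries, by how well it recovered simulated depth. The 7 settings kept for comparison gave 19800000 to 21000000 fragments in OTD, 18500000 to 21300000 in YTD, 22800000 to 24300000 in OAD and 17800000 to 54900000 in YAD. Intervals are exact (Poisson, or conditional binomial for ratios). The promoter window searched for motifs was widened from the bases before the start to the whole window after a first search had been seen. Promoters are those of RefSeq on GRCm38.p6. A protein comparison was planned and is not reported. The alternatives were a pseudocount of 0.1, TPM, median of ratios, leaving out mitochondrially encoded genes with or without tissue-specific genes, an FPKM filter of 1 and a threshold of 1.5-fold. Sums without 1 dominant marker were added after the values were seen. The steps were tested on simulated data. Python 3.11.15, numpy 2.4.6, pandas 2.3.3, scipy 1.17.1 and matplotlib 3.10.9 were used.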

Additional observations from a re-analysis of the deposited data

Results flagged for a closer look

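For 5 members the old library lay on opposite sides of the young one in the 2 phases. The telogen age difference minus the anagen one, in log2(FPKM + 1), was 0.94 for Ptgds, 0.48 for Ptgis, 0.35 for Ptger2, 0.29 for Ptgfr and -0.30 for Ptges. With 1 library in each group these differences were not tested. Of the 10 age ratios behind them, Ptgds in anagen alone had a counting interval that excluded 1. The sign for Ptges in anagen changed with TPM and with either way of leaving genes out.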

How the results depend on the processing

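No paired analysis was possible because each group has 1 library. In old against young telogen dWAT, the 1 called member became 3 with a pseudocount of 0.1 or a threshold of 1.5-fold and 2 without mitochondrially encoded genes, and the median of 0.37 became 0.73 with the pseudocount, 0.53 without mitochondrially encoded genes and 0.48 without tissue-specific genes as well. In anagen the median became -0.15 with TPM. In young anagen against telogen, the 5 calls became 9 with the pseudocount, 3 with TPM, 3 without mitochondrially encoded and tissue-specific genes and 8 at 1.5-fold. That median became -1.24 with the pseudocount, -0.34 with TPM, -0.70 without mitochondrially encoded genes, -0.65 without tissue-specific genes as well and -0.99 with the FPKM filter. In old mice the median became -1.80, -0.58 and -1.05 under the first 3 of these and -1.24 with the filter. Of 200 single-member values under 5 rescalings or pseudocounts, 24 moved and 0 called values reversed, while 14 uncalled values changed sign, mostly the anagen age differences of Ptgs1, Ptgs2, Ptges and Ptger4. Relative to the shift of all genes, the telogen calls without mitochondrially encoded genes were 1. Counting intervals depend on the estimated depth, an alternative added after the data were seen. Of 40, 1 (Ptgis in telogen) differed under a window score, and 6 differed with the depth divided by 2, among them Ptgir and Ptger3 in telogen and Ptgs2 in young mice.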

Other observations

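Marker lists given beside no member stood as follows, in summed FPKM. Mast cell markers stood at 103 in OTD and 69.7 in YTD, against 24.3 in OAD and 32.2 in YAD, and platelet markers at 75.1 and 65.9, against 11.7 and 16.3. Keratinocyte markers went the other way, at 55.8 and 80.9 in telogen and 1265 and 839.8 in anagen. Neutrophil markers were at 138 and 115 in telogen, old and young, and 142 and 58.5 in anagen, and S100a8 made up most of each sum. Without S100a8 they were at 14.5 and 1.20 in telogen and 12.6 and 1.80 in anagen, with S100a9 and Retnlg called higher in OTD than in YTD. In anagen S100a8 and S100a9 were called higher in OAD than in YAD. T cell markers were low in each library, between 1.06 and 1.83, with Cd8a at 0 in all but YTD.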
